A study of Mus musculus with 2 samples.

Results

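Cluster 9 was 1 of the 12 groups into which the authors sorted single cells of irradiated mouse colon epithelium, and it is the group in which Fabp2 was highest. Its members are the cells averaged in the authors' column numbered 9. They number 168 of 3082 cells, which is 5.45% of all cells (exact binomial 95% interval 4.68% to 6.31%, counting error only). The cells were colon epithelium of wild type C57BL/6 mice, labelled as irradiated and after 2 weeks, which is taken here as the time from irradiation, and RNA was read cell by cell. Radiation proctitis, injury of the rectum by radiation, and its repair by transplanted colonoids, organoids grown from colon crypts, are the subject named in the title. There was 1 group with 2 libraries, and no sample without irradiation was analysed here. The labels give neither sex, age, dose nor the number of mice. They do not say whether a graft was given or whether any cells come from one.

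Absorptive colonocytes take up water, salt and short-chain fatty acids from the gut lumen. They draw much of their energy from butyrate made by bacteria, which they burn in mitochondria by fatty acid oxidation and can turn into ketone bodies. They arise from dividing crypt cells and mature as they move to the surface, where they gain a brush border, carbonic anhydrases and ion exchangers. Along the length of the gut, Hox and Cdx transcription factors are known to mark position. Fabp2 encodes the intestinal fatty acid-binding protein, best known from absorptive cells of the small intestine.

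Each value is the mean number of unique molecular identifiers (UMIs, tags that count captured RNA molecules) of a gene per 10000 UMIs of a cell, averaged by the authors over the cells of a cluster. Levels are not divided by gene length. Both libraries are pooled in every column, so no value has a replicate, no test was possible, and the cell barcodes that the libraries share could not be counted. The intervals given are 95% Poisson intervals, or exact conditional binomial intervals for a ratio, on approximate UMI numbers. They cover counting error only and say nothing of the spread between mice or libraries. Clustering used these same genes, so what sets a cluster apart describes it and is not independent evidence. In averages, fewer cells that carry a gene and less of its RNA per cell cannot be told apart.

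The 4 marker genes given for the cluster were all measured in it. Fabp2 stood at 26.8 (25.8 to 27.7) per 10000 in cluster 9, against 1.37 (1.24 to 1.52) in cluster 3 and 0.212 (0.125 to 0.338) in cluster 8. Guca2a, which encodes guanylin, a peptide that drives chloride and water secretion, stood at 149.7 (147.4 to 152.0), against 38.6 (37.9 to 39.4) in cluster 3 and 78.0 (76.1 to 79.9) in cluster 8. Acads, the short-chain acyl-CoA dehydrogenase that starts the oxidation of butyrate, stood at 5.46 (5.03 to 5.91), against 3.25 (3.05 to 3.47) and 1.19 (0.969 to 1.45). Those 3 genes were highest in cluster 9 of all 12 clusters. Car1, a cytosolic carbonic anhydrase, stood at 60.4 (58.9 to 61.9) in cluster 9, above 18.3 (17.8 to 18.8) in cluster 3 and below 74.3 (72.5 to 76.2) in cluster 8. Of 30 absorptive colonocyte genes, 25 reached 1 per 10000. The list summed to 593.1, which ranked 3rd of 12, behind clusters 8 (901.1) and 4 (814.3) and before cluster 3 (476.5). It holds the 4 markers, with Guca2a at 149.7 and Car1 at 60.4, so the 3rd rank rests on them. Goblet and enteroendocrine markers were low: the summed level of 18 goblet cell genes ranked 11th of the 12 clusters, and the 15 enteroendocrine genes summed to 0.182. The sums of stem and of cycling genes each ranked 6th and that of tuft cell genes 9th, all above clusters 3 and 8. By the absorptive colonocyte genes the cells are called absorptive colonocyte-like.

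Promoter sequence is shown for 3 genes that mark the poles of the cluster: Fabp2 and Guca2a, which were highest in cluster 9, and Fxyd4, which was nearly missing from it. The sequences come from RefSeq on build GRCm38.p6, the same assembly as mm10, and hold the 250 bases before a RefSeq start of the gene, 5′ to 3′ on the gene's strand. Fabp2 lies at chr3:122895072-122899506 on the plus strand and its promoter at chr3:122894822-122895071. Guca2a lies at chr4:119637732-119639465 on the plus strand and its promoter at chr4:119637482-119637731. Fxyd4 lies at chr6:117933558-117937714 on the minus strand, and the RefSeq start used lies inside that span, so that its window at chr6:117937336-117937585 overlaps the annotated gene. Capitals mark TTTAT, a core that CDX factors bind, or AGATAA, a core that GATA factors bind, which reads TTATCT on the other strand.

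Fabp2 promoter: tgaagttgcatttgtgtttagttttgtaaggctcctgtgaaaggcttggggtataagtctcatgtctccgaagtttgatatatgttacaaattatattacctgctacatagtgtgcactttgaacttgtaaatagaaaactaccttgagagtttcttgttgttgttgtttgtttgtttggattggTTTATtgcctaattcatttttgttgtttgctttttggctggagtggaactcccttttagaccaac
Guca2a promoter: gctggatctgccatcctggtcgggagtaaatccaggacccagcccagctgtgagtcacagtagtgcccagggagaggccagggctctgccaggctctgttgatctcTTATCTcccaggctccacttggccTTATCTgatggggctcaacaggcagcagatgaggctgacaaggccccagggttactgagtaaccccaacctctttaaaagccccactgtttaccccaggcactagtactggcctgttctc
Fxyd4 promoter: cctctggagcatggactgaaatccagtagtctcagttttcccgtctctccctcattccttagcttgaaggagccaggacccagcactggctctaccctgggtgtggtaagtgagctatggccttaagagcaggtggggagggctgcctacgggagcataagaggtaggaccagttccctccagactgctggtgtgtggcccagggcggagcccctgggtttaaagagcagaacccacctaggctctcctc

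Searched on both strands, TTTAT occurred in the promoter windows of 29.1% of 11364 measured genes with an entry, AGATAA in 7.58% and CAAAGTCCA, a site that HNF4 binds, in 0.502%. The letters overlap, since TTTATCT would hold a CDX and a GATA core. Of the 16 genes described next as leading, 12 had an entry, and TTTAT occurred in 8 of them, AGATAA in 4 and CAAAGTCCA in 1, that of Cyp2c65. Of the genes lower in cluster 9 than in clusters 3 and 8, 39 had an entry, and 20 held TTTAT, 7 AGATAA and 0 CAAAGTCCA. A match of letters is a description and not a bound site.

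A gene was called leading where it reached 1 per 10000 in cluster 9 and was at least 2-fold above the highest of the other 11 clusters, after 0.1 per 10000 was added to every level. This held for 16 of 1453 genes (1.1%). Fabp2 led by the widest margin: its level was 4.05 log2 units above that of the next cluster, number 7, at 1.52 per 10000. Cyp2c65, a cytochrome P450, stood at 1.44 (1.23 to 1.69), against 0.145 (0.0749 to 0.254) in cluster 8, the next. Apol10a, an apolipoprotein L family gene, stood at 1.13 (0.939 to 1.34), against 0.160 in cluster 4, the next.

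Most of the other leading genes encode metabolic enzymes, and 1 encodes a transcription factor. Cdx2, the homeobox factor that specifies intestinal epithelium, stood at 3.43 (3.09 to 3.79) per 10000, against 0.778 (0.677 to 0.889) in cluster 3 and 0.681 (0.514 to 0.884) in cluster 8, while its highest level elsewhere was 0.853 in cluster 7. Sult1a1, a sulfotransferase that conjugates phenols, stood at 8.82 (8.27 to 9.39), against 2.60 in cluster 3 and 0.137 in cluster 8. Its levels in clusters 2 (2.58) and 6 (1.70) were above that in cluster 8 as well. Aqp4, a water channel of the basolateral membrane, stood at 5.45 (5.02 to 5.90), against 2.13 in cluster 3 and 0.0600 (0.0193 to 0.141) in cluster 8. Dpep1, a membrane dipeptidase, showed the other order, with 4.89 (4.49 to 5.32) in cluster 9 but 2.02 in cluster 8 and 0.694 in cluster 3. Further leading genes, with their levels in cluster 9, were Mgat4c (5.17), Akr1c19 (3.92), Hsd3b3 (3.56), Mpst (3.0), B4galnt1 (1.32), Aldh1a1 (1.21), Aadac (1.15) and Ces1d (1.0). They include a glycosyltransferase pair (Mgat4c and B4galnt1), a retinaldehyde dehydrogenase (Aldh1a1), a steroid dehydrogenase (Hsd3b3), a sulfurtransferase (Mpst) and esterases (Aadac and Ces1d). The next highest cluster was 3 for 5 of the 16 genes, 7 for 3, 8 for 3, 4 for 2, and 1, 2 and 10 for 1 each. Hsd3b3, Akr1c19, Ces1d, Cyp2c65 and Apol10a belong to families of near-identical copies, so how reads were shared among copies is uncertain.

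**Figure D1:**
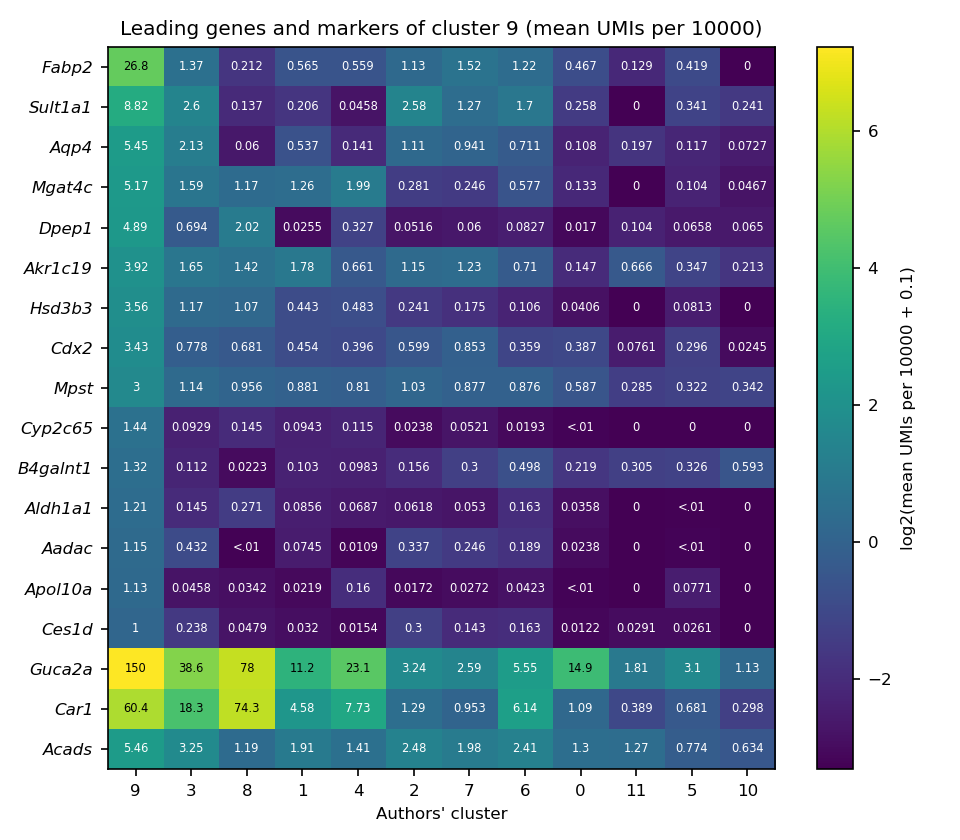
Levels of 15 of the 16 leading genes of cluster 9 and of the markers Guca2a, Car1 and Acads (rows) in the 12 clusters (columns), printed as mean UMIs per 10000 and coloured on a log2 scale after adding 0.1. Fabp2 is at 26.8 in cluster 9 and at 1.52 or less in every other cluster, and Car1 alone of these genes is higher in cluster 8 (74.3) than in cluster 9 (60.4).

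The depth of the averages limits what can be read. In cluster 9, UMI totals were recovered for 165 of the 168 cells, from 571 to 27960 with a median of 12821, and 1 unit per 10000 rests on about 110.4 UMIs. Cluster 3 had 339 cells with a median of 11888 UMIs, and cluster 8 had 197 cells with a median of 6487 UMIs. A gene listed at 0 in cluster 9 could be present at up to 0.0272 per 10000, the level of 3 UMIs, against 0.0108 in cluster 3 and 0.0364 in cluster 8. Mitochondrially encoded genes took 4.50% of UMIs in cluster 9, compared with 3.70% for cluster 3 and 4.58% for cluster 8. Of 67 markers of immune and stromal cells, 31 were at 0 in cluster 9 and none reached 1 per 10000. The highest was Xbp1 at 0.915, and the sum of the 67 was 3, against 24.3 in cluster 3 and 12.1 in cluster 8. Most of the sum in cluster 8 came from Ly6g, described below, so it need not measure immune cells. The neutrophil genes Ngp, Camp and S100a8 stood at 0, 0.0179 and 0.447 in cluster 9 and at 2.81, 2.35 and 7.01 in cluster 3, so the comparison with cluster 3 includes them, and their part in other differences was not tested. Xist, the RNA that silences an X chromosome in females, stood at 0.0223 in cluster 9, compared with 0.0197 for cluster 3 and 0 for cluster 8. It was higher in clusters 1 (1.34), 4 (2.99), 6 (2.68) and 7 (2.10), and what the mice that gave the cells add to differences from those 4 clusters was not tested.

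Across 3276 genes, the profile of cluster 9 was closest to that of cluster 3 (Spearman's rho 0.94), followed by clusters 1 (0.91), 2 (0.86) and 8 (0.84), as a description over genes that share depth and scaling. Against cluster 3, 1455 of 1575 genes at 1 per 10000 or more in either cluster (92.4%) lay within 2-fold. Of these 1575, 53 (3.37%) were at least 2-fold higher in cluster 9 and 67 (4.25%) at least 2-fold lower. Against cluster 8, 1180 of 1745 genes (67.6%) lay within 2-fold, 323 (18.5%) were higher and 242 (13.9%) lower. The median log2 ratio over the genes compared was 0.01 against cluster 3 and 0.05 against cluster 8. The balance against cluster 8 moved with the scaling. Without mitochondrially encoded and ribosomal protein genes, 413 genes were higher and 193 lower, and the median log2 ratio was 0.27. Without the 20 most abundant genes, 310 were higher and 400 lower, and the median was -0.16.

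Genes of the cytosolic ribosome differed from cluster 8 nearly as a whole. Of 79 ribosomal protein genes compared, 77 were at least 2-fold higher in cluster 9 than in cluster 8 (median log2 ratio 2.16), and 0 of 79 differed 2-fold from cluster 3 (median 0.05). They took 16.1% of all UMIs in cluster 9, compared with 15.8% for cluster 3 and 3.94% for cluster 8. Of the 1666 other genes compared with cluster 8, 246 were higher and 242 lower on the authors' scale, a balance that moves with the scaling as given above. Cluster 8 had the lower UMI totals, and the part of depth in this gap was not tested.

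**Figure D2:**
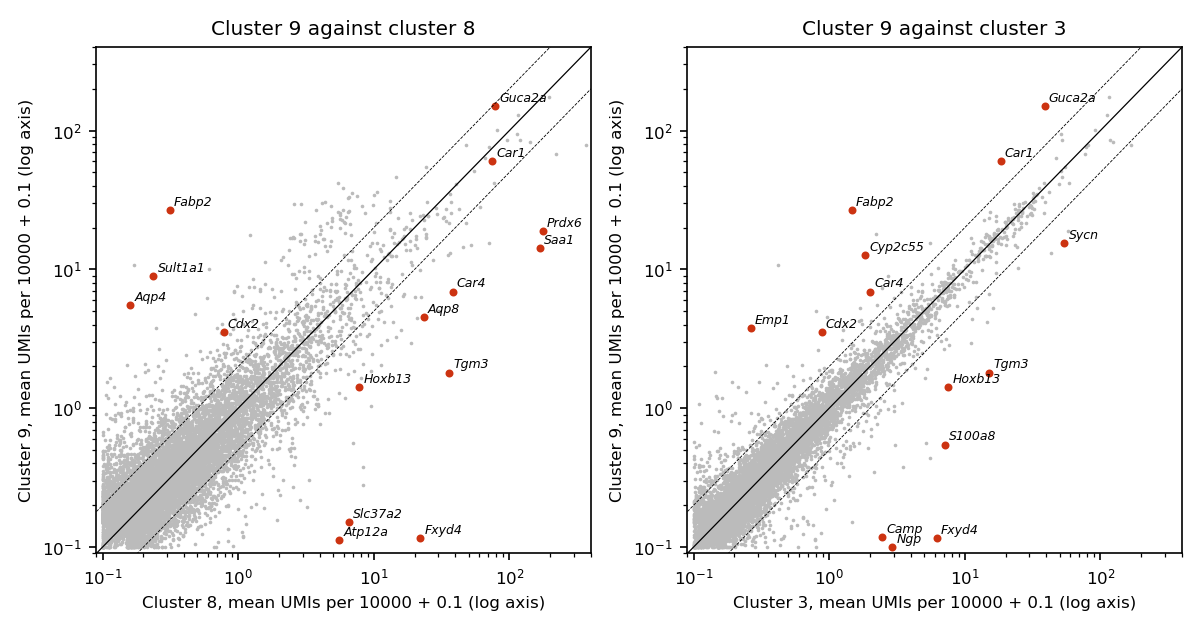
Each point is a gene, with its level in cluster 9 (vertical log axis) against cluster 8 (left) and cluster 3 (right), as mean UMIs per 10000 plus 0.1, for genes at 0.05 or more in clusters 3, 8 or 9. The solid line marks equal levels and the dashed lines 2-fold differences; Fabp2 lies far above the line in each panel and Fxyd4 far below it.

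Genes for burning fatty acids and making ketone bodies were high in cluster 9 as a group. Of 41 such genes, 21 were highest in cluster 9 of all 12 clusters, and their summed level of 66.2 per 10000 ranked 1st, against 44.4 in cluster 3 and 36.4 in cluster 8. Of all 17044 genes, 4.73% were highest in cluster 9, and of the 1803 genes at 1 per 10000 or more in clusters 3, 8 or 9, 8.26%. Against cluster 8, 9 of 21 compared members were at least 2-fold higher and 3 lower, with a median log2 ratio of 0.52 over all 41. Against cluster 3, 1 of 21 was at least 2-fold higher and 0 lower, with a median of 0.22. Among all genes compared, 18.5% were higher and 13.9% lower than in cluster 8, and 3.37% and 4.25% than in cluster 3.

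Hadh, Acaa2 and Bdh1, enzymes of its mitochondrial steps, were highest in cluster 9 and lowest in cluster 8 of the 3 clusters. Hadh, the 3-hydroxyacyl-CoA dehydrogenase, stood at 4.85 (4.45 to 5.27) in cluster 9, 3.66 (3.44 to 3.89) in cluster 3 and 1.61 (1.35 to 1.91) in cluster 8. Acaa2, the mitochondrial thiolase, stood at 2.31 (2.04 to 2.62), 1.21 (1.08 to 1.34) and 0.616 (0.459 to 0.811). The intervals of clusters 9 and 3 do not overlap for Hadh and Acaa2, nor do those of clusters 3 and 8. Bdh1, which makes 3-hydroxybutyrate from acetoacetate, stood at 1.11, 0.803 and 0.398. Among the 3 members lower than in cluster 8 were a carrier and an enzyme of ketone body use. Slc25a20, the carrier that brings acylcarnitines into mitochondria, stood at 1.13 (0.940 to 1.35) in cluster 9 and 3.49 (3.1 to 3.92) in cluster 8. Oxct1, the enzyme with which cells use ketone bodies rather than make them, stood at 0.961 (0.787 to 1.16) in cluster 9, 1.70 (1.55 to 1.86) in cluster 3 and 2.79 (2.45 to 3.18) in cluster 8.

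The tricarboxylic acid cycle and nuclear oxidative phosphorylation genes had medians nearer to cluster 3 than to cluster 8. Of 16 compared genes of the tricarboxylic acid cycle, 4 were at least 2-fold higher than in cluster 8 and 0 lower (median log2 ratio 0.63 over 21 measured), and 0 of 16 differed 2-fold from cluster 3 (median 0.07). Of 75 compared nuclear genes for oxidative phosphorylation, 6 were higher than in cluster 8 and 1 lower (median 0.29 over 77). Against cluster 3, 0 of 75 differed 2-fold, and 59 of the 77 were lower in cluster 9 (median -0.14). The shares over all genes were 18.5% higher and 13.9% lower against cluster 8, and 3.37% and 4.25% against cluster 3. The oxidative phosphorylation counts lie below these shares. Summed levels of fatty acid oxidation and the respiratory chain stood in different orders across the 2 clusters most alike. Cluster 9 had the higher sum of the first (66.2 against 44.4) and cluster 3 of the second (862.1 against 765.7). Of the 41 genes of the first, 29 lay above cluster 3 and 12 below. Only 1 of 21 compared was at least 2-fold higher, at a log2 ratio of 4.66, and its part in the sum was not worked out.

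Detoxification enzymes were the other large metabolic group. Of 72 measured, 24 were highest in cluster 9, where 4.73% of all genes were highest. Of 42 compared with cluster 8, 13 were at least 2-fold higher and 4 lower, beside 18.5% and 13.9% of all genes (median log2 ratio 0.44). Against cluster 3, 9 of 41 were higher and 3 lower, beside 3.37% and 4.25% of all genes (median 0.41). Cyp2c55, a cytochrome P450, stood at 12.5 (11.9 to 13.2) in cluster 9, 1.74 (1.59 to 1.90) in cluster 3 and 8.81 (8.18 to 9.48) in cluster 8. Gstm1, a glutathione transferase, stood at 3.70 (3.35 to 4.07), 2.41 (2.23 to 2.60) and 0.148 (0.0769 to 0.257). Sult1c2, a sulfotransferase, stood at 1.55 (1.33 to 1.80), 0.620 and 0.0127, the last a level under that of 3 UMIs. Some members were lower, among them Prdx6, a peroxiredoxin that repairs oxidised lipids, at 18.8 (18.1 to 19.7) in cluster 9, 57.4 (56.5 to 58.3) in cluster 3 and 176 (173 to 178) in cluster 8. The summed level of the list, with Prdx6 in it, was 216.8 in cluster 9, compared with 215.0 for cluster 3 and 364.6 for cluster 8.

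**Figure D3:**
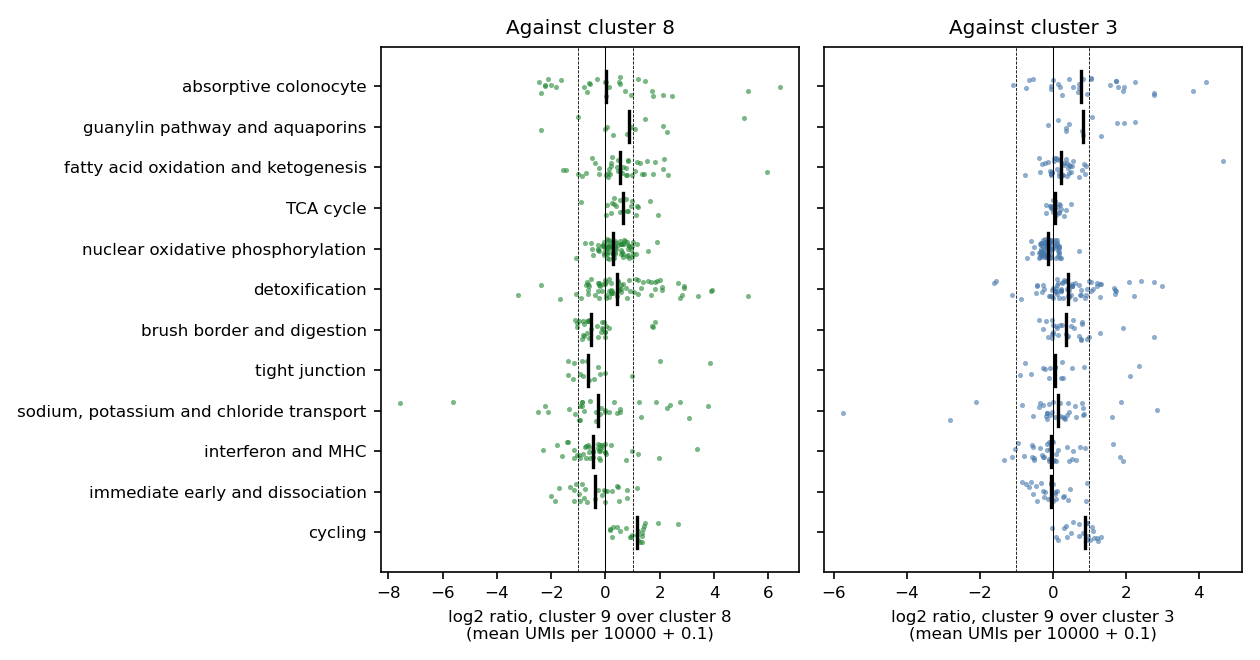
Log2 ratios of the measured members of 12 gene lists (dots), cluster 9 over cluster 8 (left) and over cluster 3 (right), with 0.1 per 10000 added; black bars are list medians and dashed lines mark 2-fold. Fatty acid oxidation has a median of 0.52 against cluster 8 and 0.22 against cluster 3, and the sodium, potassium and chloride list holds the lowest dot of each panel, Fxyd4.

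Absorptive colonocyte genes were mostly above cluster 3 and went either way against cluster 8. Of 25 absorptive colonocyte genes compared with cluster 3, 10 were at least 2-fold higher in cluster 9 and 1, Lypd8, was lower (median log2 ratio 0.77 over 30). Against cluster 8, 4 were higher and 8 lower. The 10 include Fabp2, Guca2a and Car1, and the 4 include Fabp2. These are markers given for the cluster, so the counts are not independent of how it was named. Over all 30 members, 16 lay above cluster 8 and 14 below. Their median of 0.01 changed sign among the settings tried (-0.16 to 0.21). The shares over all genes were 3.37% higher and 4.25% lower against cluster 3, and 18.5% and 13.9% against cluster 8. Among all 1803 genes at 1 per 10000 or more in clusters 3, 8 or 9, 25 (1.39%) were at least 2-fold higher in clusters 9 and 8 than in cluster 3, and in 14 of these cluster 8 was above cluster 9. Several well-known members lay between the other clusters. Car4, the carbonic anhydrase bound to the apical membrane, stood at 6.82 (6.34 to 7.32) in cluster 9, 1.91 (1.75 to 2.08) in cluster 3 and 38.1 (36.8 to 39.5) in cluster 8. Aqp8, a water channel of surface colonocytes, stood at 4.45 (4.07 to 4.86), 0.862 (0.756 to 0.978) and 23.3 (22.3 to 24.4). Krt20, a keratin of mature surface cells, stood at 7.19 (6.70 to 7.71), 2.36 (2.19 to 2.55) and 10.8 (10.1 to 11.5). In each of the 3 genes, cluster 9 lay above cluster 3 and below cluster 8, with no overlap of the intervals. Slc26a3, the exchanger that takes up chloride for bicarbonate, had the same order at 4.33 (3.96 to 4.74), 2.42 (2.24 to 2.61) and 20.7 (19.8 to 21.7). Emp1, a membrane protein of epithelia, did not: it stood at 3.69 (3.34 to 4.06) in cluster 9, 0.165 (0.121 to 0.220) in cluster 3 and 0.595 (0.440 to 0.786) in cluster 8.

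Brush border genes summed to 43.9 per 10000 in cluster 9, between 31.6 in cluster 3 and 70.5 in cluster 8. Of 19 compared with cluster 8, 0 were at least 2-fold higher in cluster 9 and 3 lower (median log2 ratio -0.54 over 31). The lower share is near that of all genes, of which 18.5% were higher and 13.9% lower. Against cluster 3, 1 of 17, Anks4b, was higher and 0 lower (median 0.37), beside 3.37% and 4.25% of all genes. Cdhr5, a protocadherin that links microvilli at their tips, stood at 7.80 in cluster 9, compared with 4.72 for cluster 3 and 13.6 for cluster 8, and its partner Cdhr2 at 3.73, 1.90 and 5.69. Vil1, the actin bundler villin, stood at 2.47 (2.18 to 2.78), 2.47 (2.28 to 2.66) and 3.96 (3.54 to 4.42). Of 10 compared tight junction genes, 1 was higher than in cluster 8 and 3 were lower (median -0.65 over 16). The higher one, Cldn15, encodes a claudin that forms a pore for sodium. It stood at 1.46 (1.24 to 1.70) in cluster 9, 0.203 (0.154 to 0.264) in cluster 3 and 0.00683 in cluster 8, where the level of 3 UMIs is 0.0364.

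A few brush border and bile acid transport genes at low level were higher in cluster 9 than in clusters 3 and 8; they were chosen after their values were seen. Slc51a, a subunit of the basolateral bile acid exporter, stood at 0.354 (0.252 to 0.484) in cluster 9 and was listed at 0 in clusters 3 and 8, and its partner Slc51b stood at 0.676 (0.531 to 0.848), 0.406 (0.334 to 0.488) and 0.468 (0.332 to 0.641). Slc10a2, the apical bile acid importer known from the ileum, stood at 0.225 (0.145 to 0.333) in cluster 9, 0.0171 (0.00536 to 0.0409) in cluster 3 and 0.0557 (0.0169 to 0.135) in cluster 8. These 3 genes were highest in cluster 9 of all 12 clusters, but the intervals of Slc51b in clusters 9 and 8 overlap. Alpi, intestinal alkaline phosphatase, stood at 0.276 (0.187 to 0.392) in cluster 9, was listed at 0 in cluster 3 and stood at 0.0148 in cluster 8. Tmigd1, a brush border adhesion protein, stood at 0.681 (0.536 to 0.853), 0.0134 (0.00342 to 0.0355) and 0.130 (0.0644 to 0.235). Slc3a1, a subunit of the transporter for cystine and basic amino acids, stood at 0.299 (0.206 to 0.420) in cluster 9 and at 0.0359 or less in every other cluster. Over the small intestinal list of 20 measured genes, the sum of 48.0 per 10000 was the highest of the 12 clusters. Cluster 4 had 44.9, little of it from Fabp2, so this rank rests on that marker of cluster 9. Of the sum in cluster 9, Fabp2 made 26.8 and Dmbt1, a mucosal scavenger receptor, 16.8. Besides these 2 genes, Rbp2, a retinol-binding protein, and Gsta1, a glutathione transferase, reached 1 per 10000. Of the 20, 5 were highest in cluster 9, the marker Fabp2 among them. Of all genes, 4.73% were highest there, and 8.26% of those at 1 per 10000 or more in clusters 3, 8 or 9. Other members were low: Fabp1 was listed at 0, Fabp6 stood at 0.0794 (0.0359 to 0.152) against 0.283 (0.224 to 0.353) in cluster 3, and Apob at 0.175 against 0.670 in cluster 8. Slc15a1, the peptide transporter, stood at 0.118 in cluster 9 and 2.78 in cluster 8.

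Ion transport genes differed in both directions. Of 34 measured genes for sodium, potassium and chloride transport, 2 of 16 compared were at least 2-fold higher than in cluster 8 and 6 lower (median log2 ratio -0.26). Against cluster 3, 2 of 14 were higher and 2 lower (median 0.13). Shares over all genes were 18.5% higher and 13.9% lower against cluster 8, and 3.37% and 4.25% against cluster 3. Cftr, Slc12a2 and Kcne3, which act in chloride secretion, were above clusters 3 and 8. Cftr, the apical chloride channel, stood at 0.701 (0.554 to 0.876) in cluster 9, 0.352 (0.285 to 0.429) in cluster 3 and 0.0679 (0.0238 to 0.152) in cluster 8. Slc12a2, which loads chloride at the basolateral side, stood at 0.805 (0.647 to 0.991), 0.196 (0.147 to 0.256) and 0.00666, and Kcne3, a potassium channel subunit, at 1.95 (1.70 to 2.23), 1.52 (1.38 to 1.67) and 0.0505 (0.0142 to 0.127). Cluster 9 was the highest of the 3 clusters for each, without overlap of the printed intervals. For Kcne3 those of clusters 9 and 3 nearly touch (1.70 and 1.67), and the true ones may be wider. Guca2b, which encodes uroguanylin, stood at 0.602 (0.466 to 0.766), 0.417 and 0.155, and their receptor Gucy2c at 0.909 (0.740 to 1.11), 0.679 and 0.925.

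Several other transport genes showed the reverse. Fxyd4, a subunit that regulates the sodium pump, stood at 0.0162 (0.00163 to 0.0623) in cluster 9, 6.11 (5.82 to 6.41) in cluster 3 and 21.9 (20.9 to 22.9) in cluster 8. The value in cluster 9 came from 2 UMIs in 2 cells, so that cluster 8 was 1352-fold (350.4 to 13459) and cluster 3 378-fold (97.8 to 3759) higher. Atp12a, the colonic proton-potassium pump, stood at 0.0123 (0.000714 to 0.0560), 0.683 (0.590 to 0.788) and 5.46 (4.97 to 5.99), with 3 UMIs in 3 cells of cluster 9. Slc37a2, a sugar phosphate exchanger, stood at 0.0506 (0.0177 to 0.113), 1.38 (1.25 to 1.53) and 6.43 (5.89 to 7.003). For all 3 genes cluster 9 was the lowest and cluster 8 the highest of the 3 clusters, without overlap of intervals. The epithelial sodium channel was low in all 3 clusters: Scnn1a stood at 0.609 (0.472 to 0.772) in cluster 9, 0.425 (0.351 to 0.509) in cluster 3 and 1.69 (1.42 to 1.99) in cluster 8, Scnn1b at 0.00772, 0.0198 and 0.111, and Scnn1g was listed at 0 in cluster 9. Slc20a1, a phosphate carrier, stood at 0.945 (0.772 to 1.14), 2.11 (1.94 to 2.29) and 9.40 (8.75 to 10.1), and Ano1, a calcium-gated chloride channel, at 0.226 (0.146 to 0.334), 1.31 (1.18 to 1.45) and 1.71 (1.44 to 2.02).

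**Figure D4:**
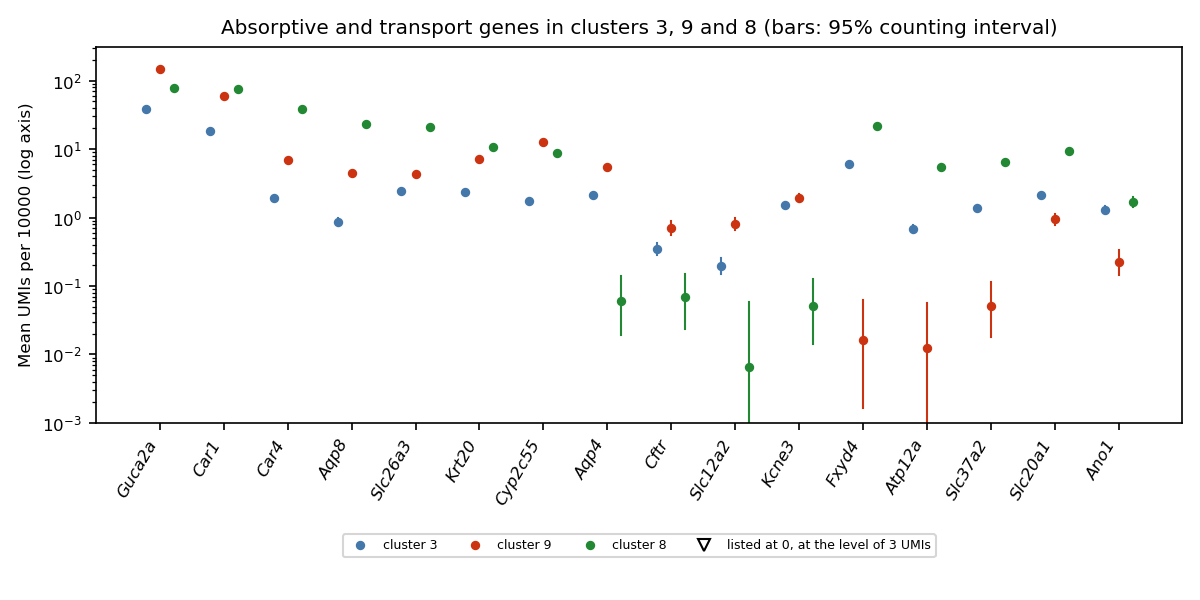
Levels of 16 absorptive and transport genes in clusters 3, 9 and 8 as mean UMIs per 10000 on a log axis; dots are the authors' averages and bars are 95% counting intervals, drawn down to 0.001. Car4, Aqp8, Slc26a3 and Krt20 lie between the other clusters in cluster 9, Cftr, Slc12a2 and Aqp4 are highest there, and Fxyd4, Atp12a and Slc37a2 are lowest.

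Fxyd4 and Atp12a belong to 49 genes (2.72% of 1803) that were at least 2-fold lower in cluster 9 than in clusters 3 and 8. In 39 of the 49 the level in cluster 8 was above that in cluster 3, and 5 were lowest in cluster 9 of all 12 clusters. Lypd8, a secreted protein that keeps bacteria off the epithelium, was the most abundant, at 78.2 (76.6 to 79.9) in cluster 9, 168 (166 to 169) in cluster 3 and 369 (365 to 373) in cluster 8. Tgm3, a transglutaminase that crosslinks proteins, stood at 1.71 (1.47 to 1.97), 14.97 (14.5 to 15.4) and 35.8 (34.6 to 37.2). Eno3, the muscle-type enolase, stood at 0.277 (0.188 to 0.394), 3.39 (3.18 to 3.61) and 8.27 (7.66 to 8.92). These 3 genes shared the order of clusters 9, 3 and 8 with Prdx6. Ckmt1, the mitochondrial creatine kinase, was an exception, at 13.1 (12.4 to 13.8), 43.4 (42.6 to 44.2) and 36.7 (35.4 to 38.03). Ly6g, a surface protein better known from neutrophils, stood at 0.178 (0.108 to 0.276) in cluster 9, 0.939 (0.829 to 1.06) in cluster 3 and 8.19 (7.58 to 8.83) in cluster 8. Conversely, 30 genes (1.66% of 1803) were at least 2-fold higher than in clusters 3 and 8, of which 25 were highest in cluster 9 of all 12 clusters and 16 were the leading genes. A larger set of 241 genes (13.4%) was shared with cluster 3 over cluster 8, of which 77 encode ribosomal proteins.

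Hox genes, whose order on a chromosome follows position along the body axis, differed in both directions. Hoxb13 and Hoxd8 to Hoxd13 were lower in cluster 9 than in clusters 3 and 8, and Hoxb3 to Hoxb9 were higher. Hoxb13, the last gene of the Hoxb group (chr11:96194316-96196610), stood at 1.31 (1.11 to 1.55) in cluster 9, 7.44 (7.13 to 7.77) in cluster 3 and 7.71 (7.13 to 8.34) in cluster 8. Its level in clusters 3 and 8 differed by less than the counting intervals, and was 5.67-fold (4.79 to 6.75) and 5.87-fold (4.89 to 7.08) that of cluster 9. The 6 genes Hoxd8 to Hoxd13 summed to 0.0325 (0.00802 to 0.0873) in cluster 9, 0.780 (0.679 to 0.891) in cluster 3 and 1.18 (0.959 to 1.44) in cluster 8. All 6 were lower in cluster 9 than in clusters 3 and 8, and 3 of them were listed at 0. The 7 genes Hoxb3 to Hoxb9 went the other way, with sums of 1.01 (0.828 to 1.21), 0.345 (0.279 to 0.421) and 0.106 (0.0475 to 0.203), and all 7 were above clusters 3 and 8. The ratio of these sums was 2.92 (2.20 to 3.88) over cluster 3 and 9.53 (4.79 to 21.7) over cluster 8. Hoxb9 alone stood at 0.626 in cluster 9, and 5 of the 7 were listed at 0 in cluster 8. Only 1 of the 7 was highest in cluster 9 of all 12 clusters. The 11 measured Hoxa genes summed to 2.07 (1.81 to 2.35) in cluster 9, 2.06 (1.89 to 2.24) in cluster 3 and 1.62 (1.35 to 1.92) in cluster 8. The groups were formed after the values were seen, and reads of the overlapping transcripts of Hoxb3 to Hoxb6 may be shared between them.

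The traces of 5 genes that were nearly missing from cluster 9 lay in different cells. Fxyd4, Atp12a, Hoxd13, Hoxd11 and Hoxd10 together had 10 UMIs in cluster 9, in 10 different cells. No cell held more than 1 of these genes, which is likely in any case for 10 UMIs among 168 cells. The UMI totals of these cells ran from 4390 (Hoxd13) to 27960 (Atp12a).

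**Figure D5:**
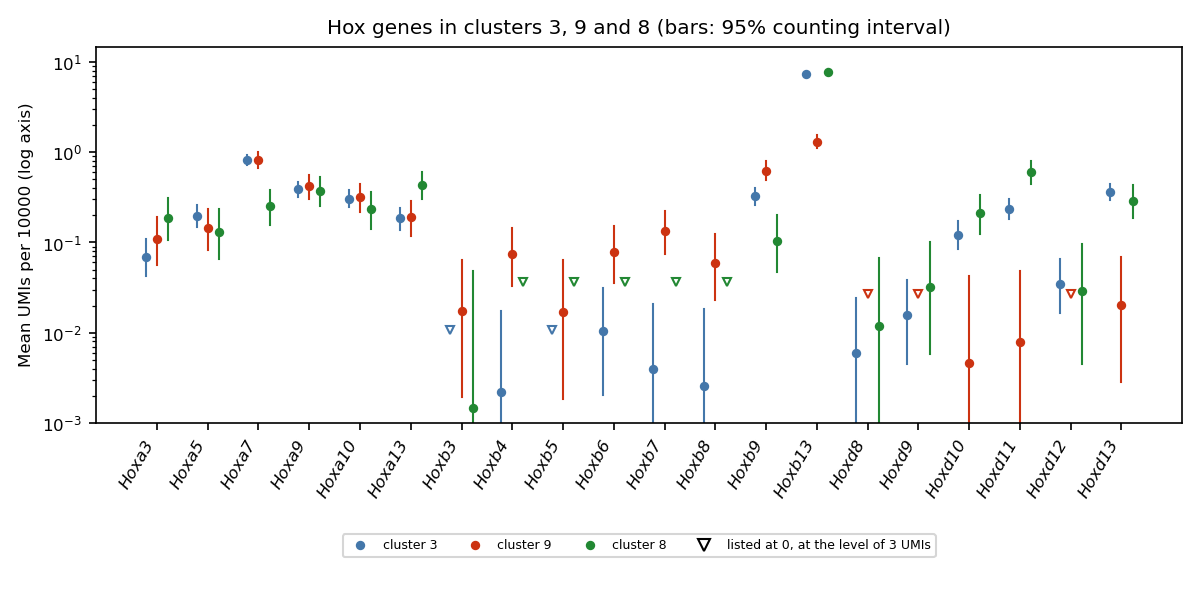
Levels of 20 Hox genes in clusters 3, 9 and 8 as mean UMIs per 10000 on a log axis; dots are the authors' averages, bars 95% counting intervals drawn down to 0.001, and open triangles genes listed at 0, placed at the level of 3 UMIs. Hoxb13 and Hoxd8 to Hoxd13 are lowest in cluster 9, and Hoxb3 to Hoxb9 are highest in cluster 9 of the 3 clusters.

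Among 50 other gut transcription factors and nuclear receptors, 1 of 14 compared was at least 2-fold higher than in cluster 3, Cdx2, and 0 lower (median log2 ratio 0.09). Against cluster 8, 1 of 15 was higher and 2 lower (median -0.08). Shares over all genes were 3.37% higher and 4.25% lower against cluster 3, and 18.5% and 13.9% against cluster 8. Cdx1, the paralogue of Cdx2, stood at 3.98 (3.62 to 4.37) in cluster 9. It stood at 3.76 (3.54 to 3.99) in cluster 3 and 2.16 (1.85 to 2.50) in cluster 8. Isx, a homeobox gene of the intestine that represses vitamin A uptake, stood at 0.851 (0.687 to 1.04), 0.0539 (0.0301 to 0.0890) and 0.0673 (0.0235 to 0.151), with 0.569 in cluster 1, the next. Pparg, a nuclear receptor for fatty acids, stood at 0.763 (0.609 to 0.944), 0.359 (0.292 to 0.437) and 0.310 (0.202 to 0.456), and was highest in cluster 9. Hnf4a, which drives enterocyte genes, stood at 2.32 (2.05 to 2.62), 2.06 (1.89 to 2.23) and 3.67 (3.26 to 4.10). Klf4, a factor of surface cells, stood at 4.81, 4.79 and 10.8.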

How the data were processed

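Values were deposited by the authors on a linear scale, as mean UMIs per 10000 of each of 17044 genes in 12 clusters; each column sums to 10000. Cell Ranger 3.1.0, Seurat 2.3 and the build mm10 are named in the submitters' processing notes. Annotation, cell filters, handling of doublets and the settings of the clustering were not given in the sources used here. A few cells can set an average.

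Cell numbers and UMI totals were recovered because 10000 divided by the average of a gene with 1 UMI is whole (relative tolerance 1e-12). Cells without a recovered total were given the 10th percentile of their cluster's totals. Recovery was tested on simulated data, where the depth came out somewhat too high, so the true intervals may be wider than those printed. Genes with up to 4 UMIs were traced to cells by their totals.

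Levels were compared as log2 ratios with a pseudocount of 0.1, which understates the folds of low genes, among genes at 1 per 10000 or more, and called at 2-fold. Ratios printed as folds have no pseudocount. No test was possible. Named were the 4 markers, the 20 widest leads, the 15 highest and lowest ratios against each of clusters 8 and 3, the 10 highest levels, all Hox, Fabp, carbonic anhydrase, guanylin pathway and sodium channel genes, and members of 39 lists by level or ratio. Cluster members, lists and this rule were chosen with earlier results of these data known. Genes outside it, among them Isx, Alpi, Tmigd1, Slc51a, Slc51b, Slc10a2, Slc3a1, Pparg, Hnf4a, Apob, Ckmt1, Lgr5, Mki67, Top2a, Reg3b and Xist, and the AGATAA motif, were chosen after values or sequences were seen. Some genes counted here are not reported by name. Python 3.11.15, numpy 2.4.6, pandas 2.3.3 and scipy 1.17.1 were used. The alternatives tried were other pseudocounts, level minimums, folds, scalings and a call by the counting interval.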

Additional observations from a re-analysis of the deposited data

How the results depend on the processing

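Leaving out a library was not possible, because the authors' columns pool both, and for the same reason outliers and differences between libraries could not be looked for. No paired analysis was possible because there is 1 group and its libraries are not separated. The counts of leading genes and of genes higher than in cluster 8, lower than in 8, higher than in 3, lower than in 3, higher than in 8 and 3, shared with 8 over 3, shared with 3 over 8, and lower than in 8 and 3 were, in this order, 16, 323, 242, 53, 67, 30, 25, 241 and 49. With a pseudocount of 1 they were 8, 159, 109, 26, 32, 14, 5, 116 and 19. With a level minimum of 5 they were 5, 111, 71, 14, 22, 7, 7, 106 and 21, and with none 32, 1010, 639, 200, 167, 130, 43, 535 and 89. With a fold of 4 they were 4, 110, 56, 18, 13, 10, 4, 74 and 9. With a minimum of 0.5, counts over 1.5 times the first were 525 and 399 against cluster 8, 83 and 101 against cluster 3, 47 higher than both and 368 shared with cluster 3. Rescaled without the 20 most abundant genes, 400 were lower than in cluster 8. Other settings kept each count within 1.5 times. Against cluster 3, the share of higher among differing genes was 44.2%, 58.1% at a fold of 4 and 54.5% with no minimum. Fewer or more genes tested, or a stricter fold, follow from these settings by construction; the cause of the shift without the 20 most abundant genes was not tested. For 71 named genes, most of them chosen for extreme ratios or levels, no direction reversed against cluster 8 or 3 under pseudocount or scaling. Such a choice leaves little room for a reversal, and the other named genes are not covered by this count. Depth limits most the genes under 0.0364 per 10000 in cluster 8.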

Other observations

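Genes of dividing cells were found at low level in cluster 9, and whether the cluster holds dividing cells was not tested. All 22 cycling genes listed were above their level in cluster 8 and 21 above that in cluster 3, but only Hmgb2 reached 1 per 10000 in cluster 9. The share of all genes above clusters 8 and 3 was not worked out beside these counts. The sum of the 22 genes was 5.19 (4.77 to 5.63) per 10000 in cluster 9, 2.31 (2.13 to 2.49) in cluster 3 and 0.802 (0.620 to 1.02) in cluster 8. It ranked 6th of the 12 clusters, against 44.7 in cluster 7, the highest. Mki67, a marker of dividing cells, stood at 0.110 (0.0568 to 0.191), 0.00801 and 0.00661, and Top2a at 0.0841 (0.0391 to 0.158), 0.0115 and 0.00959. The 14 stem cell genes measured summed to 4.03 (3.67 to 4.42) in cluster 9, 1.43 (1.29 to 1.58) in cluster 3 and 2.21 (1.90 to 2.56) in cluster 8, and ranked 6th of the 12 clusters. Prom1, a membrane glycoprotein also found on mature cells, and Slc12a2 made up 1.96 and 0.805 of the sum in cluster 9, and Lgr5 was listed at 0 in clusters 9, 3 and 8.

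Immediate early genes, which respond to handling and other stress, lay below cluster 8 and near cluster 3. Of 27 measured immediate early genes, 10 were lowest in cluster 9 of all 12 clusters, where 1.78% of all genes were lowest, and the sum over the list, 36.8 per 10000, was the lowest of the 12, against 38.6 in cluster 3 and 63.3 in cluster 8. Fos stood at 5.57 (5.13 to 6.02) in cluster 9, 5.25 (4.98 to 5.52) in cluster 3 and 6.73 (6.18 to 7.32) in cluster 8. Saa1, an acute phase protein, stood at 14.2 (13.5 to 14.9), 13.03 (12.6 to 13.5) and 168 (166 to 171), and H2-K1, an MHC class I heavy chain, at 6.31, 4.64 and 16.4. Of 13 interferon and MHC genes compared with cluster 8, 4 were at least 2-fold lower and 1 was higher. Among all genes compared, 13.9% were lower and 18.5% higher. The median log2 ratio was -0.46 over the 41 interferon and MHC genes measured. Reg3b, a bactericidal lectin chosen after its value was seen, stood at 0.395 (0.286 to 0.531) in cluster 9, 0.0482 (0.0259 to 0.0818) in cluster 3 and was listed at 0 in cluster 8.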
